A study of Mus musculus with 7 samples.

Results

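Methylation of lysine 9 on histone H3 (H3K9) marks silent chromatin in mammalian cells, and the genes that write, read and recruit this mark were compared between mouse embryonic fibroblasts (MEFs) and mouse embryonic stem cells (mESCs). The 10 genes were chosen by symbol: Trim28, Setdb1, Atf7ip, Suv39h1, Suv39h2, Ehmt1, Ehmt2, Cbx5, Hells and Zfp809. All 10 were among the 55484 rows of the count table, and all 10 were among the 16580 genes with enough counts to be tested. RNA was sequenced from the 3' ends of transcripts in 4 samples of MEFs and 3 samples of mESCs, all on a C57/Bl6 background and with no treatment named. The study set these data, which its laboratory already held, beside maps of open chromatin in the same cell types. In the study's methods, MEFs were sorted as Thy1+ cells and mESCs as Thy1-/Ssea1+/Epcam+ cells for the chromatin libraries, and whether the RNA came from the same sorts is not stated. The extraction text attached to the RNA samples describes blood stem cells rather than these cells.

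Retroelements, which include copies of viral or virus-like sequences, make up a large part of the mouse genome. Embryonic stem cells silence many of them through H3K9 trimethylation. In the best known route, a zinc finger protein with a KRAB domain binds the element and recruits TRIM28, which in turn brings the methyltransferase SETDB1 and HP1 proteins. A separate pair of enzymes, SUV39H1 and SUV39H2, trimethylates H3K9 at the repeats around centromeres, while the partners EHMT1 (GLP) and EHMT2 (G9a) place mono- and dimethylation in gene-containing chromatin. The count table lists genes, and transcripts of the retroelements themselves were not analysed here. All levels are of RNA, and neither protein nor H3K9 methylation was analysed.

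The libraries held 6528643 to 11441278 counts on genes. Levels are given as CPM, counts brought to the same total in every library, after TMM scaling, which adjusts for differences in library composition, and a floor of 3 counts corresponds to 0.288 to 0.477 CPM. The floor stands for counting error only, and libraries of the same cell type differed from each other by more than that. Libraries are called MEF 1 to 4 and mESC 1 to 3 in the order of the table, because no source ties the numbers in its headers to particular samples. All 10 pluripotency markers were higher and all 11 fibroblast markers lower in mESCs, and the summed fibroblast markers fell from between 25800 and 41900 CPM in MEFs to between 361 and 411 CPM in mESCs. Of 5 blood cell markers 2 were higher (Laptm5 and Cd3e) and 1 lower (Cd53, not called without MEF 1, MEF 3 or MEF 4) in mESCs, with Ptprc at 17 counts or fewer in every library. Of 4 endothelial markers, 0 passed the threshold in edgeR's test, in DESeq2 or at an unadjusted p under 0.05, and only Tek had enough counts to be tested with all libraries. Without mESC 1, 1 endothelial marker was called higher. Nothing states whether the samples of a cell type came from separate cultures beyond the study's wording of biological replicates. The study's figure legends count fewer MEF replicates for the RNA than the libraries used here, without an explanation. The names of all MEF columns share the same prefix and letter, and so do those of all mESC columns. What these stand for is not stated, and both differ between the cell types. A culture or batch shared within a cell type could therefore not be tested apart from cell type. The p-values measure the spread between these samples.

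Promoters of 3 of the genes are shown because Suv39h1 and Suv39h2 are relatives whose levels moved in opposite directions and Hells had the largest change of the 10 genes. Each sequence is the 250 bases before the annotated start (RefSeq, GRCm38.p6), written 5' to 3' on the strand of the gene, and capitals mark a CCAAT box (CCAAT) or a GC box (GGGCGG), on either strand. The Suv39h1 window lies at chrX:8074761-8075010 (minus strand), the Suv39h2 window at chr2:3474987-3475236 (minus strand) and the Hells window at chr19:38930740-38930989 (plus strand).
Suv39h1: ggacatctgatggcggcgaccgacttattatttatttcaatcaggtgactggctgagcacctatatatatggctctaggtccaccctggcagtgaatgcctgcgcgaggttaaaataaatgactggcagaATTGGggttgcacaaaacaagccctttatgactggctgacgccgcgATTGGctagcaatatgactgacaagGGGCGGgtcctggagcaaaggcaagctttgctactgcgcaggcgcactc
Suv39h2: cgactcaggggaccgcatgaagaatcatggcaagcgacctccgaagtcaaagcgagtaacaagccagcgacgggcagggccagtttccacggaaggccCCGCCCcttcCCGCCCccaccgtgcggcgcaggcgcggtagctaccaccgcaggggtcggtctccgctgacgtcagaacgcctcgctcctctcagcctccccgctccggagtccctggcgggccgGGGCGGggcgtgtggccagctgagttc
Hells: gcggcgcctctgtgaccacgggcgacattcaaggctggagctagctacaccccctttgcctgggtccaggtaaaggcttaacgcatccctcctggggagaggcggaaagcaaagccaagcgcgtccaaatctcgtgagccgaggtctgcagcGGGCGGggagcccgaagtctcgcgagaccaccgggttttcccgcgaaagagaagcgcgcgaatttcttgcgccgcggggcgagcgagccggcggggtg

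The Suv39h1 window held 2 CCAAT boxes, 1 GC box and 11 CpG dinucleotides, and a second annotated start of this gene lies further downstream. The window before that second start, not shown, held 0 CCAAT boxes, 1 GC box and 25 CpG dinucleotides. The Suv39h2 window held 0 CCAAT boxes, 3 GC boxes and 27 CpG dinucleotides. The Hells window held 1 GC box and 28 CpG dinucleotides. Across the 10 genes, 14 windows were annotated, and all 14 held more CpG dinucleotides (7 to 36) than the median of 6 over 32851 windows of all genes. A CCAAT box occurred in 6 of the 14 windows (5 genes) and a GC box in 12 (9 genes), where 33.8% and 32.7% of all windows held one. The E-box CACGTG was found in 3 of the 14 windows (2 genes, 6.02% of all windows) and the YY1 string GCCATNTT in 3 (3 genes, 3.91%). The E2F strings TTTCGCGC and TTTGGCGC (0.654%) and the ETS string CCGGAAGT (2.88%) were found in 0 of the 14 windows. Both strands were searched, no match of one motif overlapped a match of another in these windows, and a match is a description of letters only.

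Of the 10 genes, 5 were higher in mESCs and 2 were lower, at an adjusted p under 0.05 in edgeR's quasi-likelihood test (Benjamini-Hochberg over all genes tested). Among all genes tested, 22.8% were higher and 25% were lower in mESCs by the same rule, 47.9% in all. Trim28, Setdb1, Atf7ip, Suv39h2 and Hells rose, Suv39h1 and Ehmt1 fell, and Ehmt2, Cbx5 and Zfp809 did not pass the threshold. The median log2 fold change (mESC over MEF) was 0.75 for the 10 genes and 0.04 for all genes tested. Without TMM scaling the median of all genes moved from 0.04 to 0.32, the calls over all genes turned from 3785 higher and 4153 lower to 5180 higher and 3345 lower, and the 10 genes gave 6 higher and 2 lower, Zfp809 being the added one. Summed, the 10 genes held 883 to 1010 CPM in MEFs and 1580 to 1680 CPM in mESCs. Most of this rise lay in Hells (mean 111 CPM in MEFs, 643 in mESCs) and Trim28 (164 and 399 CPM). The means of Suv39h1, Ehmt1, Ehmt2 and Cbx5 were lower in mESCs. In such bulk samples, fewer cells with a transcript and less of it per cell cannot be told apart.

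**Figure D1:**
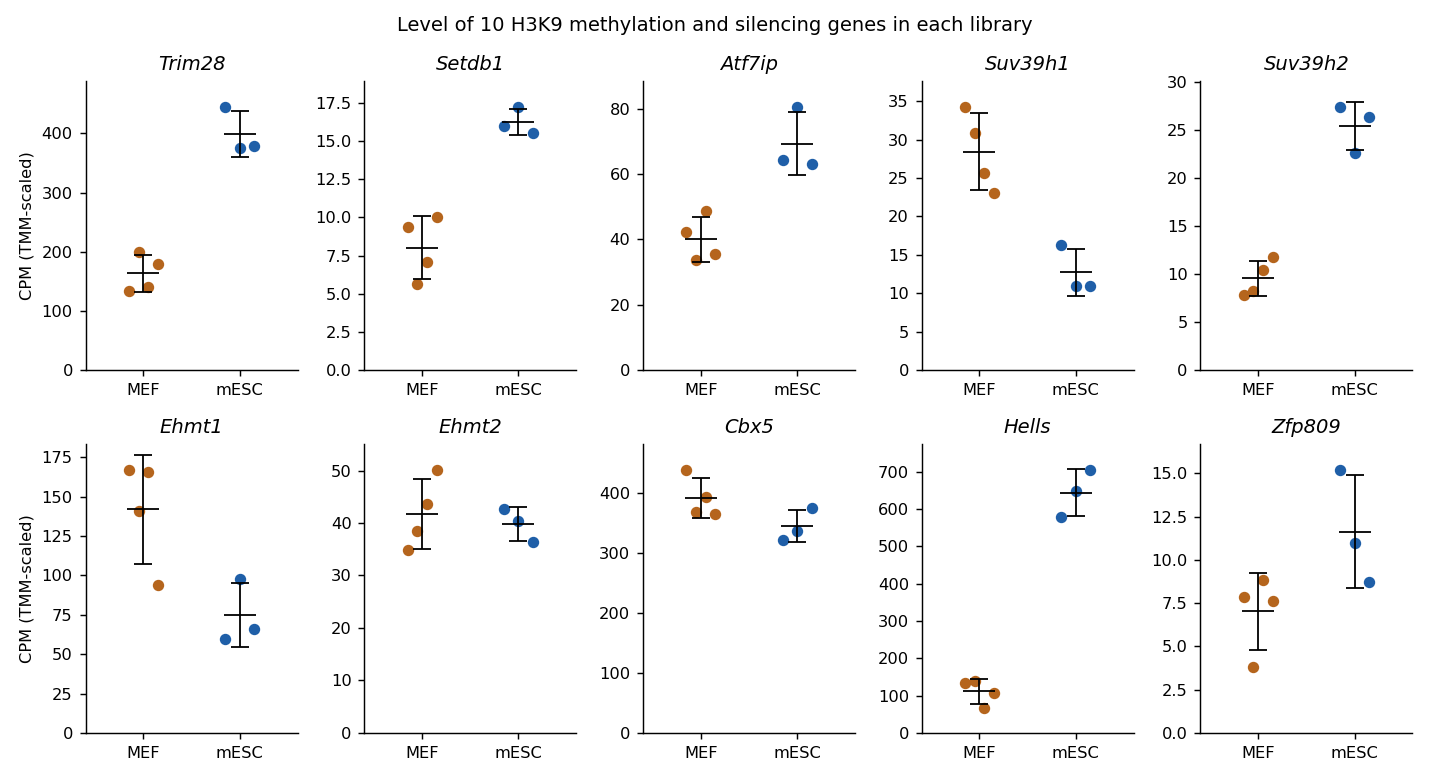
Level of each of the 10 genes in every library, in CPM after TMM scaling (vertical axis, from 0, a separate scale for each gene), for 4 MEF libraries (brown) and 3 mESC libraries (blue); lines are the mean and SD. The cell types do not overlap for Trim28, Setdb1, Atf7ip, Suv39h1, Suv39h2 and Hells, and only Suv39h1 among these is the lower one in mESCs.

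Trim28 and the genes of the methyltransferase complex it recruits, Setdb1 and Atf7ip, were all higher in mESCs. Trim28 (chromosome 7 of GRCm38, 12999114 to 13031035 in GENCODE M21) encodes the scaffold that KRAB zinc finger proteins recruit. It held 134, 200, 141 and 180 CPM in the MEF libraries and 444, 376 and 378 CPM in the mESC libraries. Every mESC library lay above every MEF library, and the log2 fold change was 1.29 with a standard error (SE) of 0.167 (edgeR adjusted p = 0.000102), a level 2.44-fold higher. None of its 50-base sequences occurs in another annotated gene.

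Setdb1 (chromosome 3, 95323525 to 95357202) encodes the methyltransferase that TRIM28 brings to its targets. Its level was 9.40, 5.64, 7.07 and 10.0 CPM in MEFs and 16.0, 17.2 and 15.5 CPM in mESCs. The mESC libraries sat close together above a wider MEF range, and the log2 fold change was 1.01 (SE 0.272, edgeR adjusted p = 0.0104). The counts behind these values were low, 37 to 98 in MEFs and 131 to 151 in mESCs. Of the 50-base sequences of Setdb1, 10.2% also occur in transcripts of other genes, mostly in Gm4349 (536 of 708). Only uniquely mapped reads were counted, so reads that match both genes equally well were left out. How many reads this removed was not measured. Gm4349 itself held 3 to 7 counts in the MEF libraries and 72 to 121 in the mESC libraries. Cers2, whose last exon meets that of Setdb1 on the other strand over 75 bases, moved the opposite way, with a log2 fold change of -1.36 (edgeR adjusted p = 0.0105).

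Atf7ip (chromosome 6, 136506167 to 136610862) encodes the SETDB1 partner that protects the enzyme and keeps it in the nucleus. It held 42.4, 33.7, 48.8 and 35.5 CPM in MEFs and 64.4, 80.4 and 63.1 CPM in mESCs. The libraries again did not overlap, and the log2 fold change of 0.79 (SE 0.183, edgeR adjusted p = 0.00456) was the smallest of the 5 rises. For Trim28, Setdb1, Atf7ip, Suv39h2 and Hells, higher in all 3 mESC libraries, and for Suv39h1, lower in all 3, the two-sided exact permutation test gave p = 0.0286 each, the smallest value that 35 splits of 4 and 3 libraries allow. Libraries that do not overlap in this way were seen in 25.9% of all genes tested with mESCs higher and in 26.2% with mESCs lower, 52.1% in all.

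Zfp809 (chromosome 9, 22225714 to 22243354), a KRAB zinc finger gene whose product recognises the primer binding site of a class of murine leukaemia viruses, had 25 to 82 counts in MEFs and 74 to 140 in mESCs. Its level was 7.87, 3.81, 8.87 and 7.63 CPM in MEFs and 15.2, 11 and 8.73 CPM in mESCs. The lowest mESC library lay within the MEF range. Its log2 fold change was 0.72 with a 95% interval of -0.05 to 1.49 (edgeR adjusted p = 0.114), so neither no difference nor a rise of the size seen for Trim28 lay outside the interval. Without TMM scaling it passed the threshold, with a log2 fold change of 1 (edgeR adjusted p = 0.0345).

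The genes of the SUV39 enzymes moved in opposite directions. Suv39h1 (chromosome X, 8061171 to 8074760) fell from 34.2, 30.9, 25.6 and 23.1 CPM in MEFs to 16.3, 11 and 11 CPM in mESCs. Its highest mESC library was below its lowest MEF library, and the log2 fold change was -1.16 (SE 0.243, edgeR adjusted p = 0.00254), a level 2.23-fold lower. Suv39h2 (chromosome 2, 3455815 to 3475031) rose from 7.87, 8.23, 10.4 and 11.8 CPM in MEFs to 27.4, 22.6 and 26.4 CPM in mESCs. The log2 fold change of Suv39h2 was 1.41 (SE 0.233, edgeR adjusted p = 0.000543), and 14.4% of all genes tested had a larger rise. Within MEFs the libraries stood in opposite order for these genes, MEF 1 with the most Suv39h1 and the least Suv39h2 and MEF 4 the reverse.

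The ratio of Suv39h1 to Suv39h2 counts within a library does not depend on how libraries are scaled. It was 4.30, 3.71, 2.44 and 1.95 in MEFs and 0.594, 0.490 and 0.418 in mESCs. The mean log2 ratio moved from 1.56 ± 0.53 (SD, n = 4) to -1.01 ± 0.25 (SD, n = 3), a 5.96-fold change (exact permutation test, two-sided, p = 0.0286, adjusted p = 0.0714 over 5 ratios). With the smallest possible p at 0.0286, fewer than 3 ratios at that value cannot pass 0.05 after this adjustment, and 2 of the 5 were there. Both genes overlap antisense neighbours: Gm14820 covers 14.6% of the exon bases of Suv39h1, and Dclre1c covers 8.10% of those of Suv39h2. Neither overlap reaches the last 1000 exon bases, where reads of a 3'-biased library are expected to gather. Gm14820 held 1 count in each MEF library and 6 to 25 in mESCs, and Dclre1c had a log2 fold change of 2.31 (edgeR adjusted p = 0.00127). The strand setting of the counting is not given in the sources used here, and the part of these neighbours in the counts was not tested.

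Ehmt1 (chromosome 2, 24789928 to 24919614) and Ehmt2 (chromosome 17, 34898469 to 34914052) encode enzymes that act as a heterodimer. Ehmt1 held 167, 141, 166 and 93.7 CPM in MEFs and 59.9, 97.9 and 66.3 CPM in mESCs. MEF 4 lay below mESC 2, so the cell types overlapped, although 3 of the 4 MEF libraries were above all mESC libraries. The log2 fold change was -0.93 (SE 0.242, edgeR adjusted p = 0.00902), while the exact permutation test on the log2 levels gave p = 0.0857. Ehmt2 held 34.8, 38.4, 43.6 and 50.1 CPM in MEFs and 42.6, 40.4 and 36.3 CPM in mESCs. The mESC libraries of Ehmt2 fell inside the MEF range, with a log2 fold change of -0.07 and a 95% interval of -0.46 to 0.33 (edgeR adjusted p = 0.788). The log2 ratio of Ehmt1 to Ehmt2 was 0.86 lower in mESCs, with overlapping libraries (exact permutation test, two-sided, p = 0.0857, adjusted p = 0.107), so the fall of Ehmt1 was not shown to differ from the change of Ehmt2.

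**Figure D2:**
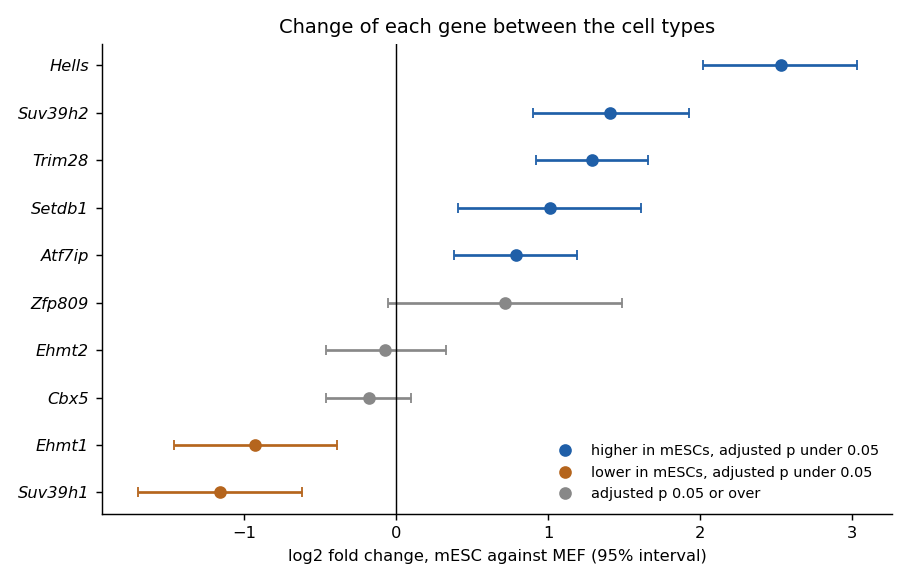
Log2 fold change of each gene, mESC against MEF (horizontal axis), with its 95% interval from edgeR's fit of 4 MEF and 3 mESC libraries; blue and brown mark an adjusted p under 0.05. Hells stands furthest to the right at 2.53 and Suv39h1 furthest to the left at -1.16, while the intervals of Zfp809, Ehmt2 and Cbx5 include 0.

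Cbx5 (chromosome 15, 103191544 to 103239816) encodes HP1 alpha, a protein that binds methylated H3K9 and TRIM28. Its level was 438, 368, 393 and 365 CPM in MEFs and 322, 337 and 375 CPM in mESCs. A single mESC library lay inside the MEF range, and the log2 fold change was -0.18 with a 95% interval of -0.46 to 0.10 (edgeR adjusted p = 0.266). The other HP1 genes, Cbx1 (HP1 beta) and Cbx3 (HP1 gamma), passed the threshold in opposite directions. Cbx1 rose with a log2 fold change of 0.60 (edgeR adjusted p = 0.0167), which dropped to 0.36 and no longer passed without mESC 2 (edgeR adjusted p = 0.0905). Cbx3 fell with a log2 fold change of -0.73 (edgeR adjusted p = 0.0126), and without TMM scaling it no longer passed, at -0.45. The log2 ratio of Cbx5 to Cbx1 was 0.76 lower in mESCs with no overlap (mESC minus MEF -0.76, exact permutation test, two-sided, p = 0.0286, adjusted p = 0.0714). For Cbx5 to Cbx3 it was 0.58 higher (exact permutation test, two-sided, p = 0.0571, adjusted p = 0.0952).

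Hells (chromosome 19, 38930915 to 38971051) encodes LSH, a SNF2-family remodeller needed for DNA methylation at repeats. It held 134, 139, 67.2 and 106 CPM in MEFs and 577, 649 and 704 CPM in mESCs. The lowest mESC library was far above the highest MEF library, and the log2 fold change was 2.53 (SE 0.228, edgeR adjusted p = 7.59e-06), a level 5.77-fold higher. Of all genes tested, 6.91% had a larger rise, and Hells was the only one of the 10 genes to pass edgeR's test against a fold change of 2, which 10.3% of all genes passed upwards. Hells is also known as a gene of dividing cells. Of 17 replication and proliferation genes, 10 were higher in mESCs (22.8% of all genes tested) and 0 lower (25%) in edgeR's test. In DESeq2 and at an unadjusted p under 0.05, 0 were lower too. The median log2 fold change of these 17 genes was 0.76, from -0.05 for Rrm2 to 1.94 for Mcm7, with 1.48 for Mcm2 and 1.54 for Mcm3. Their summed level was 1900 to 2840 CPM in MEFs and 3880 to 4170 CPM in mESCs. Whether the higher level of Hells goes with cell division was not tested.

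**Figure D3:**
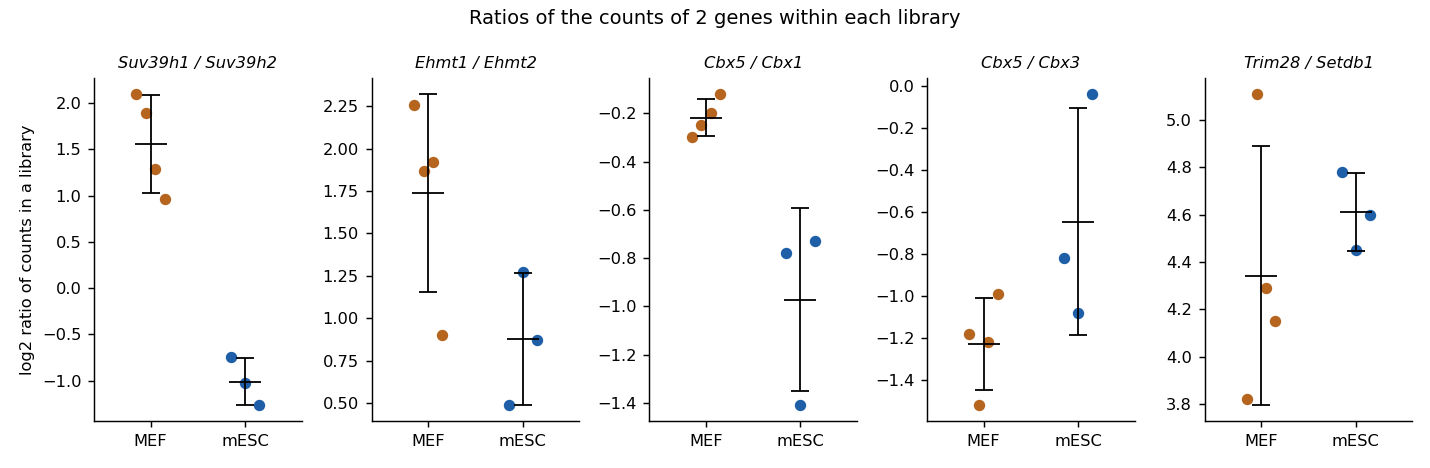
Log2 ratio of the counts of 2 genes in the same library (vertical axis, a separate scale for each pair, 1 count added to each gene) for 4 MEF libraries (brown) and 3 mESC libraries (blue); lines are the mean and SD. Suv39h1 to Suv39h2 and Cbx5 to Cbx1 do not overlap between the cell types, and Trim28 to Setdb1 moved by 0.27, less than the MEF SD of 0.55.

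The rises of Trim28 and Setdb1 were set against each other in the same way. The ratio of their counts was 14.1, 34.5, 19.6 and 17.7 in MEFs and 27.5, 21.8 and 24.3 in mESCs, and the mESC values lay within the MEF range. The mean log2 ratio was 0.27 higher in mESCs (exact permutation test, two-sided, p = 0.514, adjusted p = 0.514), with MEF 2 giving the highest ratio. MEF 2 had both the most Trim28 and the least Setdb1 of the MEF libraries.

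Beyond the 10 genes, 9 lists of genes of the wider pathway held 62 genes in the table, of which 46 could be tested. Of these, 25 were higher and 4 lower in mESCs, where 22.8% and 25% of all genes tested were higher and lower. Without TMM scaling the counts were 30 higher and 3 lower, where 5180 of all 16580 genes tested were higher and 3345 lower. The lists were chosen with earlier results of these data known, so an excess over all genes is not independent support. They also pool opposing roles, since H3K9 demethylases made up 6 of the 25 higher genes and 1 of the 4 lower. Among the 5 readers of methylated H3K9 other than Cbx5, 4 rose and 1 (Cbx3) fell. Mphosph8, a subunit of the HUSH complex that silences retroelements, rose from between 130 and 147 CPM to between 440 and 542 CPM (log2 fold change 1.88, edgeR adjusted p = 1.05e-06). Cdyl, which encodes a chromodomain corepressor, rose with a log2 fold change of 0.81 (edgeR adjusted p = 0.00916) and missed the threshold without mESC 3, at 0.65. Uhrf1, which couples H3K9 methylation to maintenance of DNA methylation, rose with a log2 fold change of 1.01 (edgeR adjusted p = 0.0183), its libraries overlapped, and it missed the threshold without MEF 3 (0.89), mESC 1 (0.92) or mESC 2 (0.80).

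Of the 5 SETDB1 and HUSH partners, 3 rose and 0 fell in edgeR's test, where 1 (Pphln1) was lower by DESeq2 and at an unadjusted p under 0.05. Over all genes tested, edgeR's test called 22.8% higher and 25% lower. Tasor, the scaffold of the HUSH complex, rose from between 16.6 and 26.1 CPM to between 84.1 and 139 CPM, with a log2 fold change of 2.19. Resf1, a SETDB1 partner in retroelement silencing, rose from between 133 and 169 CPM to between 587 and 824 CPM, with a log2 fold change of 2.15. Atf7ip2, the relative of Atf7ip, had 4 to 18 counts in MEFs and 82 to 112 in mESCs, with a log2 fold change of 2.86 (edgeR adjusted p = 0.000365). Pphln1, another HUSH subunit, had a log2 fold change of -0.98 (edgeR adjusted p = 0.0661) and passed without mESC 3, at -1.57 (edgeR adjusted p = 0.00711). Morc2a, an ATPase that works with HUSH, had a log2 fold change of 0.08.

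Trim24, Trim33 and Trim66 encode relatives of TRIM28 that act as transcription cofactors. Trim24 rose with a log2 fold change of 2.16 and Trim33 with 1.53, while Trim66 fell by 3.99 on the log2 scale (edgeR adjusted p = 0.00253), with 22 to 109 counts in MEFs and 1 to 8 in mESCs, and its log2 fold change was -5.16 without mESC 1 and -3.45 without MEF 3. Of 3 zinc finger genes whose products bind G9a and GLP, 0 passed the threshold in edgeR's test, where the unadjusted p was under 0.05 for 1 (Wiz), which DESeq2 called. Their log2 fold changes were 0.69 for Wiz, -0.05 for Zfp644 and 0.27 for Zfp462. Each moved up without TMM scaling, to 0.97 for Wiz (edgeR adjusted p = 0.0116), 0.23 for Zfp644 (edgeR adjusted p = 0.348) and 0.56 for Zfp462 (edgeR adjusted p = 0.0253). There 2 of the 3 passed, beside 5180 higher and 3345 lower among the 16580 genes tested. Leaving out TMM moved genes up in general, with a median of 0.32 in place of 0.04. The main fit, with TMM, had 22.8% of genes higher and 25% lower. Wiz also passed without MEF 3, at 0.81 (edgeR adjusted p = 0.049), and without mESC 3, at 0.88 (edgeR adjusted p = 0.0285). Of 4 further H3K9 methyltransferases of the SETDB and PRDM families, Mecom fell by 3.46 on the log2 scale (edgeR adjusted p = 0.00105). Its log2 fold change was -2.92 without mESC 1 and -4.15 without mESC 2. The others did not pass in edgeR's test, with 0.48 for Setdb2, 0.45 for Prdm2 and -0.88 for Prdm16. DESeq2 called Prdm2 and Prdm16, Prdm2 passed in edgeR without TMM scaling, at 0.73 (edgeR adjusted p = 0.00708), and Prdm16 also passed in edgeR without MEF 4, at -1.09 (edgeR adjusted p = 0.0148).

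KRAB zinc finger genes with known targets were higher in mESCs in 5 of 7 testable cases, and 0 were lower in edgeR's test, in DESeq2 or at an unadjusted p under 0.05. By edgeR's test 22.8% of all genes tested were higher and 25% lower. Zfp57, which protects imprinted methylation, rose from between 16.9 and 30.3 CPM to between 78.2 and 92.3 CPM (log2 fold change 1.85, edgeR adjusted p = 7.43e-05). Zfp568, a repressor of a placental Igf2 transcript, rose with a log2 fold change of 1.43. Zfp819 was almost absent from MEFs, with 3 pooled counts against 451 in mESCs. The ratio was 179 with a 95% counting interval of 61.0 to 873, which leaves out the differences between libraries. In edgeR's fit its log2 fold change was 7.29 (SE 0.561, edgeR adjusted p = 2.4e-06). Zfp445, which acts with Zfp57 at imprints, had a log2 fold change of 0.32 (edgeR adjusted p = 0.146). Without TMM scaling Zfp445 passed, at 0.60 (edgeR adjusted p = 0.0153), which made 6 of the 7 genes higher. In that fit 5180 of all 16580 genes tested were higher and 3345 lower.

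Genes of chaperones and SUMO factors of retroelement silencing rose in 5 of 9 cases and fell in 0. DESeq2 gave the same counts, and at an unadjusted p under 0.05 there were 6 higher, Chaf1a being the added one, and 0 lower. Morc3 (log2 fold change 1.88), an ATPase that silences retroelements, Smarcad1 (1.62), a remodeller that assists TRIM28, and Atrx (1.54), which deposits histone H3.3 with Daxx, had the largest rises, while the SUMO ligase gene Pias4 had a log2 fold change of 0.01. Genes listed as H3K9 demethylases rose too, in 6 of 10 testable cases, and 1 fell. Beside both lists, 22.8% of all genes tested were higher and 25% lower in edgeR's test. Kdm3b, a demethylase of mono- and dimethylated H3K9, rose with a log2 fold change of 2.03 and its relative Jmjd1c with 1.81, whereas Phf2, of another family, fell by 2.78 (edgeR adjusted p = 0.000254). Phf8 had a log2 fold change of 0.09. The median log2 fold change was 1.27 for the demethylases and 0.99 for the chaperones and SUMO factors, beside 0.04 for all genes tested.

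**Figure D4:**
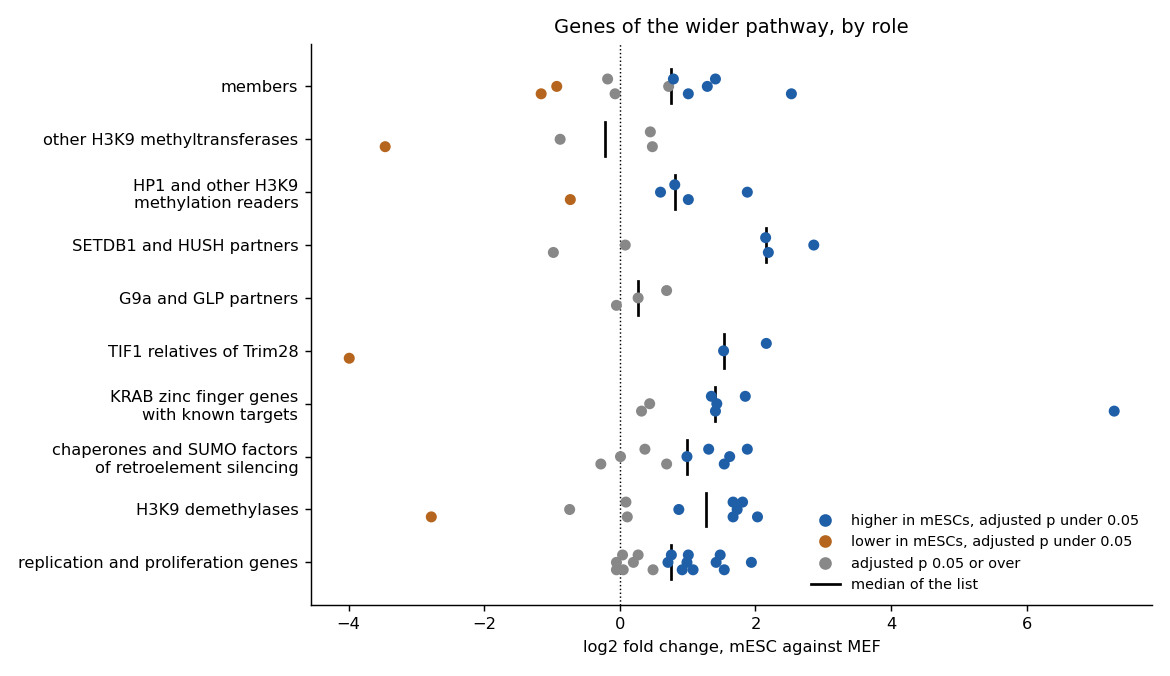
Log2 fold change, mESC against MEF (horizontal axis), of every tested gene of the 10 members, of 8 pathway lists and of the replication and proliferation genes (rows); each point is a gene, its colour gives the edgeR call and the vertical line the median of the list. Most lists lie to the right of 0, and Zfp819 is the point furthest right at 7.29, a fitted value that depends on the prior count because MEFs held 3 counts.

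Genes linked to the retroelement MERVL and to cells of the early embryo had few counts or none. None of the 14 listed in the table, including the Zscan4 genes, had enough counts to be tested. Their largest count in any library was 14 (Zfp352 in mESC 1), and their summed level was 0.0959 to 1.32 CPM in MEFs and 1.30 to 2.38 CPM in mESCs. Some of these genes, such as the Zscan4 genes, have near-identical copies, and reads that map to more than 1 copy were not counted. The values are therefore uncertain, and how much sequence the listed genes share was not measured.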

How the data were processed

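RNA-seq gene counts of 4 MEF and 3 mESC libraries were used. The authors trimmed the reads and mapped these to mm10 using STAR (version 2.4.2a in the processing notes, another in the paper). They removed duplicate molecular identifiers using Je, assigned reads with a single alignment to exons by featureCounts and deposited whole-number counts without normalization. The annotation release and strand setting are not given in the sources used here. Totals ran from 6528643 to 11441278 counts, which limits the precision of low genes. No test compared the levels of different genes. Ratios of genes were tested for their change between cell types, not for their level.

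All 7 libraries entered a single fit in edgeR 4.0.16, run with limma 3.58.1 under R 4.3.3, with TMM, filterByExpr and the quasi-likelihood test, without covariates. The code was tested on simulated data. DESeq2 1.42.0, other scalings, filters and log scales, and leaving out each library were tried as alternatives. Ratios had 1 count added to each gene. Genes named by rule are the 10 members, every gene of a pathway list with 6 or fewer measured genes, otherwise the 3 largest called changes and the best counted gene not called, genes that share exons or sequence with a member, and genes of the ratios. Blood and endothelial markers, Chaf1a, Zfp352, the Zscan4 genes and the genes under other observations were named after their values were seen. The members and lists were chosen with earlier results of these data known. Libraries of the same cell type differed from each other beyond sampling noise in every pair (chi-square 15.6 to 31.1 per degree of freedom). Coordinates are from GENCODE M21 (GRCm38), and sequence shared with other genes was measured over all 50-base stretches of a gene's transcripts.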

Additional observations from a re-analysis of the deposited data

Results flagged for a closer look

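Dixon's test set 1 MEF library apart from the remaining ones for 2 of 55 genes and ratios tested, where chance gives 2.75 (about 1 in 20). Prdm2 held 26.1 CPM in MEF 2 and 35.6 to 37.9 CPM in the others. Atf7ip2 held 0.479 CPM in MEF 3, from 4 counts, and 1.73 to 1.83 CPM in the others.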

How the results depend on the processing

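No paired analysis was possible because the count columns carry no sample numbers that are stated to be those of the labels. For the 10 genes, 120 of 130 log2 fold changes under an alternative kept their direction and their side of the threshold, and leaving out 1 library gave 5 higher and 2 lower in each of the 7 fits. The test against a fold change of 2 left 1 of the 10 genes higher and 0 lower, and 1714 and 2277 of all genes, by construction of a stricter test. For all genes, leaving out 1 library gave 3234 to 3619 higher and 3792 to 3916 lower, and for the pathway lists 23 to 26 and 4 to 5. The ratio changes kept their direction, from -2.77 to -2.39 for Suv39h1 to Suv39h2 and from 0.09 to 0.52 for Trim28 to Setdb1. Genes that never passed could change sign. Without TMM the log2 fold changes were 0.21 for Ehmt2, 0.10 for Cbx5, 0.23 for Zfp644 and 0.24 for Rrm2, and with log2(CPM + 1) the differences were 0.22 for Ehmt2 and 0.10 for Cbx5. Leaving out 1 library gave -0.15 to 0.02 for Ehmt2, -0.18 to 0.09 for Zfp644, -0.06 to 0.09 for Pias4, -0.35 to 0.27 for Phf8 and -0.33 to 0.20 for Rrm2. Pias4 was at -0.03 with no filter beyond 1 count and -0.02 with the stricter filter. Depth limits Zfp809, Setdb1, Atf7ip2 and Trim66, whose libraries held few counts. It also limits Mecom (1 to 16 counts in mESCs), Suv39h2 (54 to 87 in MEFs) and Suv39h1 (93 to 150 in mESCs).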

Other observations

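The genes of this paragraph were chosen after their values were seen. Further genes listed as H3K9 demethylases were higher in mESCs. The log2 fold change was 1.73 for Kdm7a, 1.67 each for Kdm3a and Kdm4c, and 0.87 for Kdm1a. Kdm4a (0.11) and Kdm4b (-0.74) did not pass the threshold, and Kdm4d had too few counts to be tested. Among the histone chaperones, Chaf1b, a subunit of the CAF-1 complex, rose with a log2 fold change of 1.31, while its partner Chaf1a had 0.69 (edgeR adjusted p = 0.0826), and Daxx, the partner of Atrx, rose with 0.99. The KRAB zinc finger genes Zfp932 and Gm15446, which are related to each other and bind endogenous retroviruses, rose with 1.41 and 1.35, respectively. Zfp708 held at most 7 counts in any library and was not tested.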
